A study of Homo sapiens with 36 samples.

Results

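The genes described here are 10 members of the Notch pathway: the ligand genes DLL1, DLL4, JAG1 and JAG2, the receptor genes NOTCH1 and NOTCH3, and the effector genes HES1, HEY1, HEY2 and HEYL. They were chosen by name, with earlier results of these data known, so the counts below describe a chosen set. All 10 were found in the annotation used, GENCODE release 44 on GRCh37 (hg19, the build of the deposited files), which has 20163 protein-coding genes. A peak or a table row was assigned to a gene when at least 1 bp of it lay in the gene's interval, which runs from 2.5 kb upstream of the start of the gene record to its end.

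Notch ligands on the surface of a cell bind Notch receptors on its neighbour, and the receptor is then cut so that its inner part moves to the nucleus. There it joins the DNA-binding protein RBPJ and switches on genes of the HES and HEY families, which encode transcriptional repressors of the basic helix-loop-helix type. The pathway governs choices of cell fate in many tissues and takes part in the growth of the prostate epithelium.

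The study asked how PHF19 relates to Polycomb repressive complex 2 (PRC2) in DU145, a human prostate cancer cell line that came from a brain metastasis. PRC2 methylates histone H3 at lysine 27 (H3K27me3), a mark of silenced genes. EZH2 is its catalytic subunit and SUZ12 a core subunit, and PHF19 and MTF2 are related accessory subunits. The shCTR cells carried a control short hairpin RNA, and the shPHF19L#4 cells carried a hairpin against PHF19L, the long isoform of PHF19. Both hairpins were brought in by lentivirus with puromycin selection, and the cells shared the same line and serum-containing medium. All depleted cells used here carried this same hairpin. PHF19, EZH2 and SUZ12 peaks were read from shCTR cells, and H3K27me3 and MTF2 peaks from shCTR and from shPHF19L#4 cells, with 2 replicates in each of these 7 groups. The RNA-seq samples were not analysed here, so no expression level is given for any of the genes.

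ChIP-seq reads the DNA that an antibody to a protein or mark pulls down, and peaks are places where these reads exceed those of a control. The authors called the peaks of each replicate with MACS, and sequencing depth is unknown, because none of the 14 deposited lists gives a read total. Each peak has the authors' MACS score, which grows as the P value of the peak falls and is not scaled between libraries. The PHF19 list of replicate 1 gives a number of tags in its place, and the MTF2 lists of replicate 1 give positions alone. The authors also deposited 5 DiffBind tables, which give for each region the mean log2 read concentration of a group over its 2 replicates. The tables hold no value per replicate, so no error can be given for any level or difference. They list only regions under the authors' P value of 0.05, and for PHF19 also under an FDR of 0.2. A listed region was therefore already selected for its difference, and a gene without a row was not shown to be unchanged. A difference below is the shPHF19L#4 level minus the shCTR level, or for PHF19 the ChIP level minus the input level, in log2 units.

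In shCTR cells DLL1, HEY1 and HEY2 were occupied by PHF19, EZH2 and MTF2 in both replicates and carried H3K27me3 in both. DLL4 and NOTCH3 carried H3K27me3 in both replicates and had peaks of PHF19 and MTF2 in replicate 2 alone. NOTCH3 also had an EZH2 peak in replicate 2, and DLL4 had none. JAG1, JAG2, NOTCH1 and HES1 had peaks in some replicate lists only, and HEYL had none in any of the 14. After depletion of PHF19L, every row of the 4 tables that compare the cells and that overlapped a member was higher in shPHF19L#4 cells, as were 2407 of the 2408 EZH2 rows, all 508 SUZ12 rows, 1048 of the 1049 H3K27me3 rows and 2539 of the 2546 MTF2 rows. NOTCH1 showed the largest difference among the members in the EZH2, H3K27me3 and MTF2 tables.

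PHF19 peaks lay at 3 of the 10 genes in replicate 1, against 3.78% of all genes, and at 8 in replicate 2, against 23.4%. Peaks of the replicates that overlapped were merged, and regions with a peak from each were kept. Such PHF19 regions lay at 3 of the 10 genes (3.35% of all genes), which were DLL1, HEY1 and HEY2. The replicates differed in size, with 1072 and 14218 PHF19 peaks, and DLL4, JAG1, JAG2, NOTCH1 and NOTCH3 had a peak in the larger list alone. EZH2 peaks lay at 3 of the 10 genes in replicate 1 (3.27% of all genes) and at 4 in replicate 2 (5.04%). Regions of both EZH2 replicates lay at the same DLL1, HEY1 and HEY2, 3 of 10 against 2.22%. With peaks of a score of at least 100 alone, HEY2 was lost for EZH2 and 2 of 10 remained, against 1.25% of all genes; its replicate 2 peak scored 67.8, above 18.3% of that list. SUZ12 had 1523 and 232 peaks, and its replicate 2 list was the shortest of the 14. Its peaks lay at 2 of the 10 genes in replicate 1 (1.10% of all genes), at 1 in replicate 2 (0.972%) and at 1 in both (0.253%), which was DLL1.

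H3K27me3 peaks of shCTR cells lay at 5 of the 10 genes in replicate 1 (19.6% of all genes) and at 7 in replicate 2 (14.8%). In both replicates the mark lay at DLL1, DLL4, NOTCH3, HEY1 and HEY2, which is 5 of 10 against 13.2%. With peaks of a score of at least 100 alone, DLL4 and NOTCH3 were lost and 3 of 10 remained, against 9.30% of all genes. In shPHF19L#4 cells the mark lay at 6 of the 10 genes in replicate 1 (19.2%), at 8 in replicate 2 (29.0%) and at 6 in both (18.7%), NOTCH1 being the addition. With a score of at least 100 these 6 were kept (14.7% of all genes), so that DLL4, NOTCH1 and NOTCH3 were then the additions. Their top scores in shPHF19L#4 replicate 1 were close to the limit, at 105, 113 and 108. In shCTR replicates 1 and 2 the top scores were 72.5 and 150 at DLL4 and 91.0 and 56.1 at NOTCH3. Scores are not scaled between libraries, so the additions of DLL4 and NOTCH3 depend on the limit and are not read as gains. MTF2 peaks of shCTR cells lay at 3 of the 10 genes in replicate 1 (5.86% of all genes), at 9 in replicate 2 (49.5%) and at 3 in both (5.0%). In shPHF19L#4 cells they lay at 4 in replicate 1 (10.5%), at 9 in replicate 2 (51.0%) and at 4 in both (9.81%), with NOTCH1 again the addition. The MTF2 lists of replicate 2 reach so many genes that a peak there sets a member little apart. The intervals ranged from 5085 bp for HES1 to 54116 bp for NOTCH1, and longer intervals have more room for peaks.

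**Figure D1:**
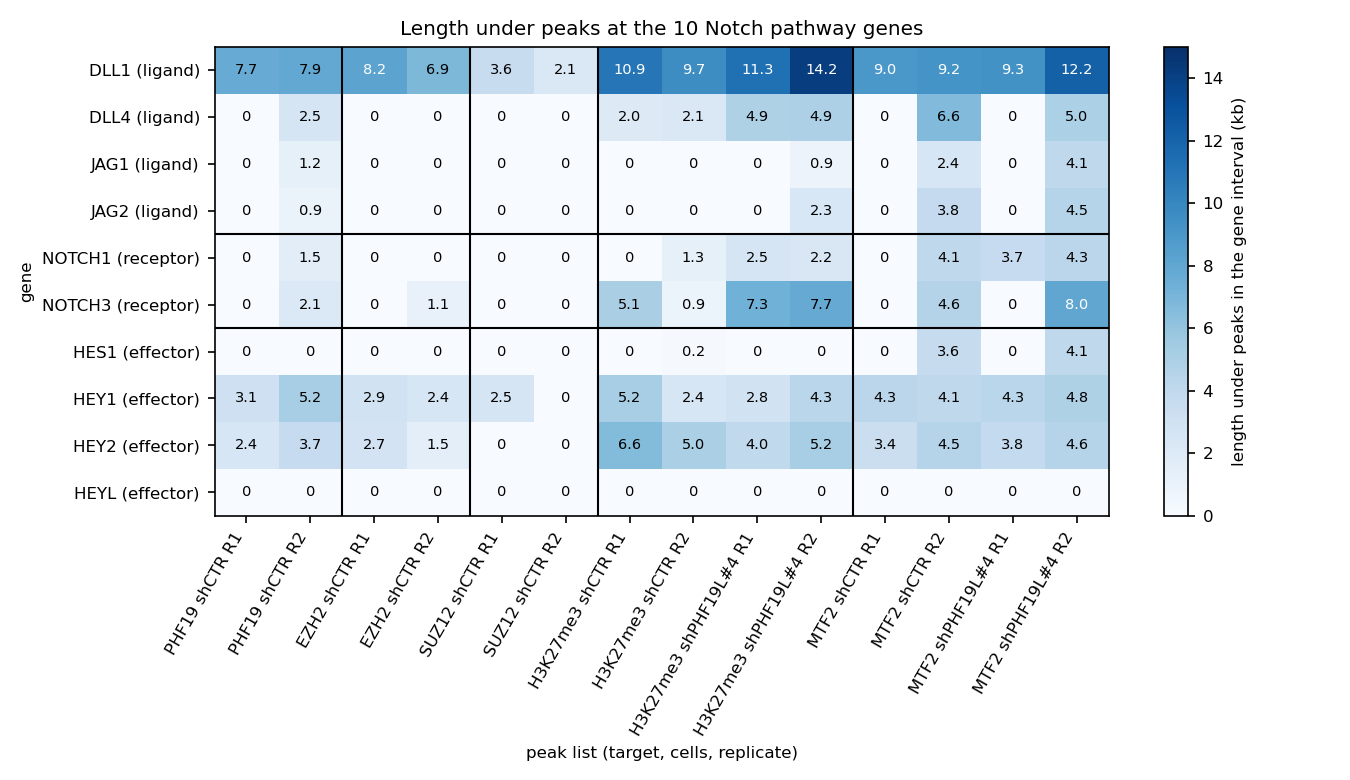
Length of each gene interval that lay under peaks, in kb, for the 10 genes (rows, by role) in each of the 14 peak lists (columns, by target, cells and replicate), with darker blue for longer coverage. DLL1 had peaks in all 14 lists, HEY1 in 13 and HEY2 in 12, whereas HEYL had none.

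DLL1, which encodes a Notch ligand of the Delta family, was the most widely covered of the 10 genes and had a peak in all 14 lists. The gene (ENSG00000198719) lies on the minus strand of chromosome 6 from 170591294 to 170615653, and its MANE Select transcript, the reference transcript of the annotation, has 11 exons and starts at 170600166. The gene record begins 15487 bp upstream of that start, so distances below are counted from the transcript start, with upstream positions negative. PHF19 peaks covered 7.66 and 7.87 kb of the DLL1 interval in replicates 1 and 2. EZH2 peaks covered 8.15 and 6.86 kb, and SUZ12 peaks 3.63 and 2.11 kb. PHF19 and EZH2 thus covered a longer stretch than SUZ12 in each replicate, and the SUZ12 peaks lay between -1272 and 2357 bp. The highest DLL1 peak had 213 tags in PHF19 replicate 1 and a score of 3100 in replicate 2, above 93.8% and 99.6% of the peaks of those lists.

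The DLL1 row of the PHF19 table, from 170597519 to 170605720, ran from -5554 to 2647 bp and covered exons 1 to 4. Its level was 8.95 in the ChIP and 6.35 in input, a difference of 2.60. EZH2 at DLL1 had a level of 8.98 in shCTR and 10.08 in shPHF19L#4 cells, a difference of 1.10, in a row from -6567 to 3151 bp. SUZ12 at DLL1 had a row over the start with 7.31 and 8.02, a difference of 0.71, and an upstream row with 6.21 and 6.98, a difference of 0.77. MTF2 at DLL1 went from 10.64 in shCTR to 11.54 in shPHF19L#4 cells, a difference of 0.90. The EZH2 and MTF2 differences lay near the middle of their tables, above 41.5% and 54.9% of the rows. The SUZ12 differences were small for their table, above 9.06% and 16.7% of the rows. Per kb of row, the shCTR concentration at DLL1 was above 97.1% of the rows for EZH2 (5.70) and 97.4% for MTF2 (7.42). For SUZ12 it was above 87.4% of the rows over the start (5.04) and 43.5% in the upstream row (4.51). FAM120B, a gene on the opposite strand whose start lies within DLL1, shares all of these rows, so the values belong to both genes.

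H3K27me3 covered 10.9 and 9.66 kb of the DLL1 interval in the shCTR replicates and 11.3 and 14.2 kb in the shPHF19L#4 replicates. Its coverage was longer in both depleted replicates than in both controls, but not when the interval was taken from the MANE Select transcript. The top H3K27me3 score at DLL1 was 1374 and 1356 in shCTR and 621 and 3100 in shPHF19L#4 cells, above 98.9%, 99.4%, 93.7% and 98.6% of the peaks of those lists. Scores are not scaled between libraries, so no direction is read from them. DLL1 had no row in the H3K27me3 table. MTF2 covered 8.98 and 9.22 kb in shCTR and 9.33 and 12.2 kb in shPHF19L#4 cells, longer in both depleted replicates. The smaller gap was 9217 against 9334 bp, and 1497 bp of the 12.2 kb was a separate peak from -16205 to -14709 bp. The order was kept when the interval was taken from the MANE Select transcript.

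DLL4, a Delta-family ligand best known from growing blood vessels, carried the mark on both sides of its start. The gene (ENSG00000128917) lies on the plus strand of chromosome 15 from 41221538 to 41231271. H3K27me3 covered 1.96 and 2.12 kb of its interval in the shCTR replicates, and 4.85 and 4.90 kb in the shPHF19L#4 replicates. All of the mark in shCTR replicate 1 lay upstream, from -3214 to -543 bp, and replicate 2 added a peak of 598 bp inside the gene. In both depleted replicates a further peak reached 2569 and 2511 bp into the gene. That stretch, from 41221386 to 41224107 over exons 1 to 4, is the DLL4 row of the H3K27me3 table, with 6.60 in shCTR, 7.58 in shPHF19L#4 cells and a difference of 0.98. This difference was small for the table, in which 12.2% of the rows had a smaller value. EZH2 at DLL4 went from 7.07 to 8.20, a difference of 1.13, in a row from -3646 to 2049 bp, with no EZH2 peak in either shCTR replicate. PHF19 at DLL4 had 2 peaks in replicate 2 and none in replicate 1. The upstream peak is the DLL4 row of the PHF19 table, from -2449 to -930 bp, and has 0 bp in common with the H3K27me3 row, whereas the inner peak, from 935 to 1951 bp, lies within that row. MTF2 covered 6.63 kb in shCTR replicate 2 and 4.98 kb in shPHF19L#4 replicate 2, with no peak in replicate 1 of either. DLL4 was thereby the member whose MTF2 coverage was shorter after depletion in the replicate that had peaks.

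The PHF19 row of DLL4 had a level of 5.21 in the ChIP and 3.87 in input, a difference of 1.34, and held 5.53 CG dinucleotides per 100 bp. Accessory subunits of this family are known to bind unmethylated CG-rich DNA, so the 150 bases of the row with the most CG are shown, with each CG in capitals. The window is chr15:41220117-41220266 of GRCh37, plus strand, from -1421 to -1272 bp, and holds 20 CG.
DLL4 window: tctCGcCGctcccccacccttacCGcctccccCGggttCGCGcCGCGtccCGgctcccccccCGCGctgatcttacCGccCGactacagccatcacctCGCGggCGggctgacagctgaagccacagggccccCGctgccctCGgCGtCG

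JAG1 and JAG2, the ligand genes of the Jagged family, had no region that both replicates shared for any target. JAG1 (ENSG00000101384) lies on the minus strand of chromosome 20 from 10618332 to 10654647. It had 1.24 kb under a PHF19 peak in replicate 2, which was also its row of the PHF19 table, with 5.39 in the ChIP, 3.82 in input and a difference of 1.57. The row ran from 761 to 2004 bp, inside the gene and over exon 2. A long noncoding RNA gene on the opposite strand, ENSG00000270792, starts within it, at 1304 bp. JAG1 had no row in the other 4 tables. MTF2 covered 2.44 kb in shCTR replicate 2 and 4.06 kb in shPHF19L#4 replicate 2, and H3K27me3 covered 0.869 kb in shPHF19L#4 replicate 2 alone. The signal at JAG1 thus came from the replicate 2 lists, and replicate 1 had no peak there for any target. The CG-densest 150 bases of the JAG1 row, chr20:10653291-10653440 of GRCh37 on the minus strand, lie from 1207 to 1356 bp and hold 16 CG, shown in capitals for comparison with DLL4.
JAG1 window: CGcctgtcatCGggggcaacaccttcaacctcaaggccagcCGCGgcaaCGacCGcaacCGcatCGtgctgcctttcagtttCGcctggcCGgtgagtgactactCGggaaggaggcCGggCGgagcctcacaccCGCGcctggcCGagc

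JAG2 (ENSG00000184916) lies on the minus strand of chromosome 14 from 105607319 to 105635161 and had no row in any table. PHF19 covered 0.945 kb of its interval in replicate 2. MTF2 covered 3.79 kb in shCTR and 4.53 kb in shPHF19L#4 replicate 2, and H3K27me3 2.29 kb in shPHF19L#4 replicate 2. No list of replicate 1 had a peak at JAG2. Chromosome 14 held an unusual share of the replicate 1 peaks, 37.8% for EZH2, 48.1% for SUZ12 and 24.9% for MTF2 in shCTR cells, while it holds 3.06% of the genes. In replicate 2 these shares were 3.48%, 3.02% and 5.66%, and their part in the result at JAG2 was not tested.

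**Figure D2:**
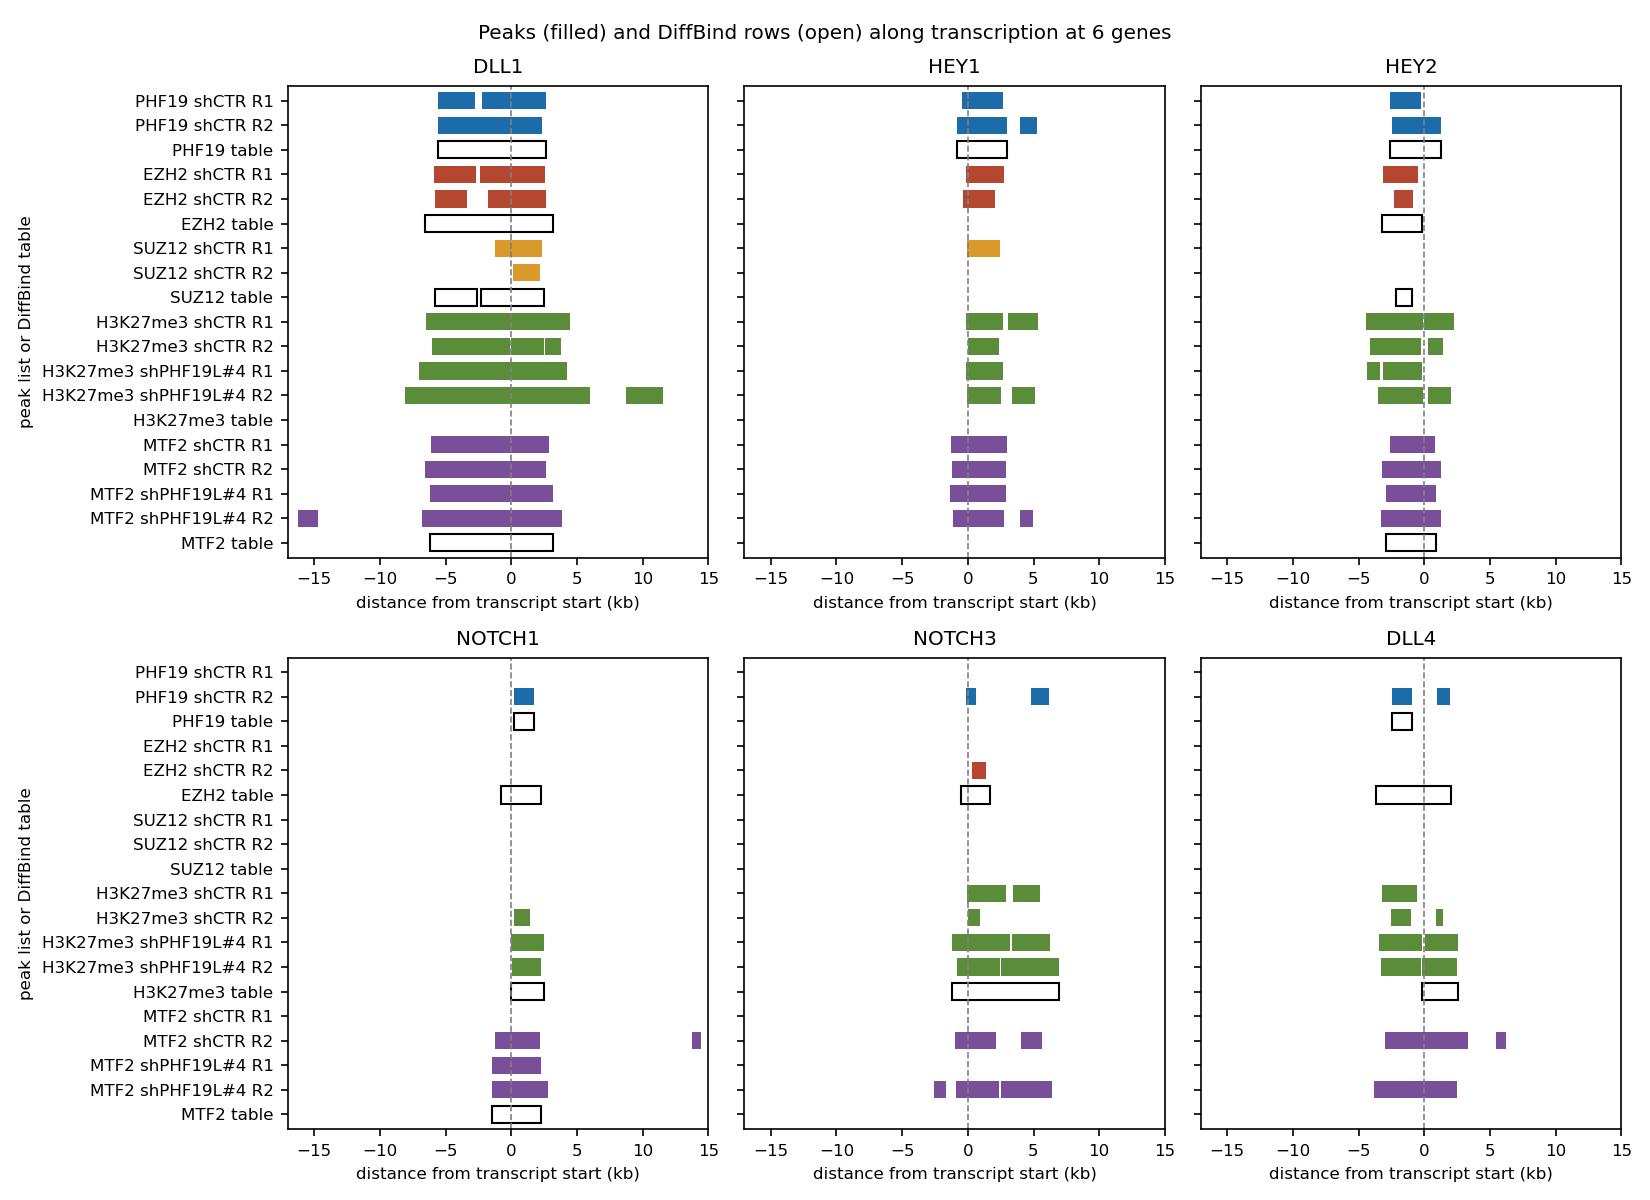
Position of peaks (filled bars) and DiffBind rows (open bars) from the transcript start, in kb along the direction of transcription, at 6 of the genes, with a line for each peak list and table and upstream to the left. At DLL1 and HEY1 peaks of PHF19, EZH2, H3K27me3 and MTF2 lie over or next to the start in both replicates, at HEY2 the EZH2 peaks and the wider H3K27me3 peaks lie upstream of it, and at NOTCH1, NOTCH3 and DLL4 the H3K27me3 peaks span less in shCTR than in shPHF19L#4 cells.

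NOTCH1 encodes a receptor found in many tissues, and it had the largest difference of the members in 3 tables. The gene (ENSG00000148400) lies on the minus strand of chromosome 9 from 139388885 to 139440500. EZH2 at NOTCH1 went from 5.93 in shCTR to 7.94 in shPHF19L#4 cells, a difference of 2.01, and 26 of the 2408 EZH2 rows had a larger one. MTF2 at NOTCH1 went from 8.02 to 9.36, a difference of 1.34, with 98 of the 2546 MTF2 rows larger. H3K27me3 at NOTCH1 went from 6.45 to 7.93, a difference of 1.48, with 148 of the 1049 H3K27me3 rows larger. The EZH2 gain started from a modest level, since the shCTR concentration per kb (4.32) was above that of 33.4% of EZH2 rows. The shPHF19L#4 value (6.33) was above that of 87.1%. For MTF2 the shCTR value per kb (6.12) was above 59.7% of the rows, and for H3K27me3 (5.11) above 88.8%. The EZH2 row ran from -820 to 2232 bp, the MTF2 row from -1506 to 2222 bp and the H3K27me3 row from -32 to 2504 bp, each over exons 1 and 2. The EZH2 and MTF2 rows also hold the start of NALT1, a long noncoding RNA gene on the opposite strand, at -164 bp.

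NOTCH1 had no EZH2 or SUZ12 peak in shCTR cells. H3K27me3 covered 0 and 1.27 kb of its interval in the shCTR replicates and 2.54 and 2.23 kb in the shPHF19L#4 replicates. MTF2 covered 0 and 4.06 kb in shCTR and 3.73 and 4.26 kb in shPHF19L#4 cells. The H3K27me3 lengths of the conditions did not overlap, whereas for MTF2 they did, because shCTR replicate 2 exceeded shPHF19L#4 replicate 1. PHF19 at NOTCH1 had a peak in replicate 2 alone, with a score of 173, above 91.2% of the peaks of that list. Its row in the PHF19 table, from 169 to 1711 bp, had 5.67 in the ChIP and 4.62 in input, a difference of 1.05, which was larger than in 3.45% of the PHF19 rows. This row lay wholly within the EZH2, MTF2 and H3K27me3 rows of the gene. It held 9.53 CG per 100 bp, more than 95.7% of the PHF19 rows. The CG-densest 150 bases, chr9:139440039-139440188 of GRCh37 on the minus strand and 312 to 461 bp from the start, hold 23 CG and are shown in capitals as above.
NOTCH1 window: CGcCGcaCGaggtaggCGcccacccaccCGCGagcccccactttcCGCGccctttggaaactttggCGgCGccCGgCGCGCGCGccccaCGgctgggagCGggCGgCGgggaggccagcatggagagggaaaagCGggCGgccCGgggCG

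NOTCH3 encodes a receptor known from vascular smooth muscle, and it already carried H3K27me3 in shCTR cells. The gene (ENSG00000074181) lies on the minus strand of chromosome 19 from 15269849 to 15311806. H3K27me3 covered 5.08 and 0.902 kb of its interval in the shCTR replicates and 7.31 and 7.68 kb in the shPHF19L#4 replicates. The depleted replicates were close to each other and above both controls, which were far apart. The H3K27me3 row, from -1234 to 6919 bp, was the widest of a member in that table at 8154 bp and went from 7.89 to 8.94, a difference of 1.05. EZH2 at NOTCH3 went from 5.56 to 6.79, a difference of 1.23, in a row from -533 to 1711 bp. EZH2 had a peak there in shCTR replicate 2 alone, with a score of 54.9. PHF19 had 3 small peaks at NOTCH3 in replicate 2, with a top score of 64.4, and no row in the PHF19 table. MTF2 covered 4.62 and 8.01 kb in replicate 2 of shCTR and shPHF19L#4 cells and had no peak in replicate 1.

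HEY1 encodes a repressor that Notch signalling is known to switch on, and it was, per kb of row, the member with the highest PHF19 level. The gene (ENSG00000164683) lies on the minus strand of chromosome 8 from 80674606 to 80680092. Its PHF19 row, from 80677012 to 80680848, ran from -846 to 2990 bp reaching all 5 exons, and had 8.86 in the ChIP and 6.01 in input, a difference of 2.85. The row also holds the start of LINC01607, a long noncoding RNA gene on the opposite strand, at -343 bp. Per kb the ChIP concentration was 6.92, above 98.2% of the PHF19 rows. PHF19 covered 3.09 and 5.18 kb, EZH2 2.89 and 2.44 kb, and SUZ12 2.53 and 0 kb of the HEY1 interval in replicates 1 and 2. HEY1 was therefore bound by PHF19 and EZH2 in both replicates and by SUZ12 in 1 of them.

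HEY1 had no row in the EZH2, SUZ12, H3K27me3 or MTF2 table, and no gain after depletion was listed there. H3K27me3 covered 5.18 and 2.36 kb in shCTR and 2.82 and 4.32 kb in shPHF19L#4 cells, so the conditions overlapped. The top H3K27me3 score at HEY1 was above 98.7% and 99.4% of the peaks of the shCTR lists and above 92.7% and 97.4% of those of the shPHF19L#4 lists, so HEY1 ranked high in all 4. MTF2 covered 4.27 and 4.06 kb in shCTR and 4.31 and 4.85 kb in shPHF19L#4 cells. Both depleted values were above both controls, but the smaller gap was 4267 against 4314 bp, and the order was lost when the interval was taken from the MANE Select transcript.

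HEY2, a close relative of HEY1 best known from the developing heart and vessels, had rows for PHF19, EZH2, SUZ12 and MTF2 but none for H3K27me3. The gene (ENSG00000135547) lies on the plus strand of chromosome 6 from 126068810 to 126082415, and its MANE Select transcript starts at 126070778. PHF19 at HEY2 had 7.81 in the ChIP and 5.41 in input, a difference of 2.40, in a row from -2626 to 1271 bp. EZH2 went from 6.62 in shCTR to 7.71 in shPHF19L#4 cells, a difference of 1.09, and SUZ12 from 5.11 to 5.87, a difference of 0.76. MTF2 went from 8.66 to 9.42, a difference of 0.76. The EZH2 row (-3242 to -142 bp) and the SUZ12 row (-2137 to -966 bp) lay upstream of the transcript start, while the PHF19 and MTF2 rows covered it. HEY2-AS1, a long noncoding RNA gene on the opposite strand, starts at -442 bp, within the PHF19, EZH2 and MTF2 rows. The SUZ12 row lies wholly within HEY2-AS1, so these values are shared with it. Within the members HEY2 had the smallest EZH2 difference, and its MTF2 difference was larger than in 29.7% of the rows.

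H3K27me3 covered 6.62 and 4.98 kb of the HEY2 interval in shCTR and 3.98 and 5.18 kb in shPHF19L#4 cells, and the conditions overlapped. The mark lay in a block upstream of the start and a further block inside the gene, and the inner block was absent from shPHF19L#4 replicate 1. The top score at HEY2 was above 92.4% and 92.9% of the peaks of the shCTR lists and above 84.8% and 95.4% of those of the shPHF19L#4 lists. PHF19 covered 2.40 and 3.72 kb, EZH2 2.72 and 1.46 kb, and MTF2 3.37 and 4.46 kb in the shCTR replicates. MTF2 covered 3.84 and 4.56 kb in shPHF19L#4 cells, which was longer within each replicate while shCTR replicate 2 exceeded shPHF19L#4 replicate 1. The CG-densest 150 bases of the HEY2 PHF19 row, chr6:126068887-126069036 of GRCh37 on the plus strand, lie from -1891 to -1742 bp, inside the EZH2 and SUZ12 rows, and hold 23 CG, shown in capitals.
HEY2 window: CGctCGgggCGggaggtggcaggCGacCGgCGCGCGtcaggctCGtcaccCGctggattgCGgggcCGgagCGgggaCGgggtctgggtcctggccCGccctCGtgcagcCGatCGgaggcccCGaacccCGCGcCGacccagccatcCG

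HES1, which encodes a repressor that oscillates in many progenitor cells, and HEYL, the remaining HEY-family gene, had no row in any table. HES1 (ENSG00000114315) lies on the plus strand of chromosome 3 from 193853937 to 193856521. MTF2 covered 3.64 kb of its interval in shCTR replicate 2 and 4.10 kb in shPHF19L#4 replicate 2, in both cases with a peak over the start. H3K27me3 at HES1 was a single peak in shCTR replicate 2 with 0.158 kb inside the interval, and PHF19, EZH2 and SUZ12 had no peak inside it. An H3K27me3 peak of shPHF19L#4 replicate 2 lay 100 bp outside the interval, and a PHF19 peak of shCTR replicate 2 lay 1.96 kb outside. HEYL (ENSG00000163909) lies on the minus strand of chromosome 1 from 40089107 to 40105315, and the nearest H3K27me3 peak lay 28.2 and 505 kb outside its interval in the shCTR replicates. HEYL was thus free of called peaks in every list, and the CG content of its promoter is given below.

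The effector genes are the known direct targets of RBPJ, so promoters of HES1, HEY2 and HEYL are shown with the core of the RBPJ motif in capitals. They are RefSeq promoters of GRCh38.p14, a later build than that of the peaks, and hold 250 bases before and 50 after the start. Entries were found for 8 of the 10 genes, without DLL1 and HEY1. The motif TGGGAA, searched on both strands (TTCCCA on the opposite strand), occurred in 3 of the 8 promoters, with 2 matches in each of HES1, HEY2 and HEYL, against 24.0% of 35116 promoters with any match and 3.80% with at least 2. In HES1 both matches lie on the strand of the gene, and in HEY2 and HEYL they lie on opposite strands. The E-box CACGTG, which HES and HEY type factors are known to bind and which reads the same on both strands, was found in 0 of the 8, against 7.26% of all promoters. A match is a description of letters, and binding of RBPJ was not measured here. The printed stretches are chr3:194135898-194136197 on the plus strand for HES1, chr6:125749382-125749681 on the plus strand for HEY2 and chr1:39639594-39639893 on the minus strand for HEYL.
HES1 promoter: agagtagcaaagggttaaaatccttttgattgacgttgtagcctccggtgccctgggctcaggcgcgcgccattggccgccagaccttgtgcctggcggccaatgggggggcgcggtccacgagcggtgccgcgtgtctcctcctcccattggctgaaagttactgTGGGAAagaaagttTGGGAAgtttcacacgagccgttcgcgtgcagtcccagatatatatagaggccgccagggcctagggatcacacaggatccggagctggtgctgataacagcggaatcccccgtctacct
HEY2 promoter: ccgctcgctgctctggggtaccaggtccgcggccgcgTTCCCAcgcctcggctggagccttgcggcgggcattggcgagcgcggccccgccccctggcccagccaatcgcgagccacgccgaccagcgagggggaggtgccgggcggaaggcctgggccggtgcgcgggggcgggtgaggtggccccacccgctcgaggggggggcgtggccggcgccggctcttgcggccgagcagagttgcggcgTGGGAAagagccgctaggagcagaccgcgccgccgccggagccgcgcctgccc
HEYL promoter: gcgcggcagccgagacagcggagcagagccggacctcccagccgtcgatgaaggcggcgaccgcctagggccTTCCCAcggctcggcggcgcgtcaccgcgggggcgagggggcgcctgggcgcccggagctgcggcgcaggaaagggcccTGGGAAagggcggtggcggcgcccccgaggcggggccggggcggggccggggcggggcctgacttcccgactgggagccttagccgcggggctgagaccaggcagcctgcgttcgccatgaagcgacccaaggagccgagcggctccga

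These promoters differed in CG content, with 21 CG dinucleotides in HES1, 43 in HEY2 and 41 in HEYL. JAG2 had 46, NOTCH1 42, NOTCH3 37, DLL4 27 and JAG1 24, against a median of 14 over the 35116 promoters. All 8 were above the median promoter. HEYL and HEY2 had nearly the same number, while HEY2 had peaks in 12 lists and HEYL in none. The part of CG content in this was not tested. Within PHF19 rows the CG per 100 bp was 9.53 at NOTCH1, 7.56 at JAG1, 6.95 at HEY2, 6.79 at DLL1, 6.49 at HEY1 and 5.53 at DLL4, against a median of 5.14 over the 1245 rows. The 3 members with the highest PHF19 level were neither at the top nor at the bottom of this order.

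PHF19 rows lay at 6 of the 10 genes, against 4.64% of all genes. The median difference between ChIP and input was 1.98 for these 6, against 1.58 over the 1245 rows of the table. The members split in this measure. HEY1, DLL1 and HEY2 had differences of 2.85, 2.60 and 2.40, larger than in 94.0%, 91.1% and 87.2% of the rows. JAG1, DLL4 and NOTCH1 had 1.57, 1.34 and 1.05, larger than in 48.4%, 25.1% and 3.45%. Per kb of row, the ChIP concentration was 6.92 at HEY1, 5.91 at DLL1 and 5.85 at HEY2, then 5.08 at JAG1, 5.04 at NOTCH1 and 4.61 at DLL4. With no error for these means, it cannot be said which neighbours in this order differ. JAG1, DLL4 and NOTCH1 were also without a PHF19 peak in replicate 1.

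**Figure D3:**
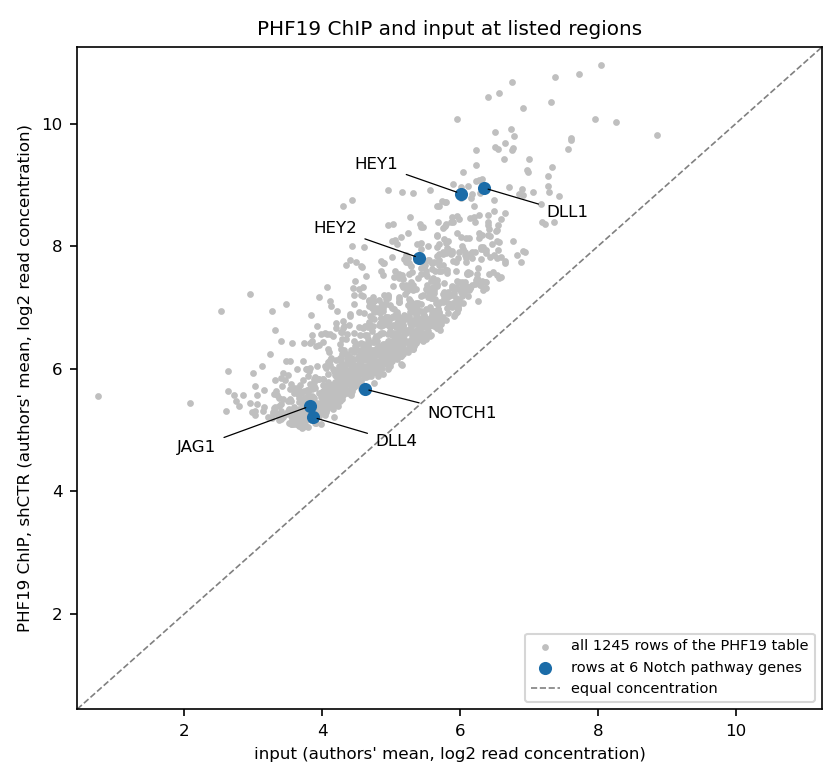
Mean log2 read concentration in the PHF19 ChIP (vertical axis) and in input (horizontal axis) of shCTR cells for the 1245 rows of the PHF19 table (grey) and the rows at 6 Notch pathway genes (blue), with the dashed line at equal concentration. HEY1, DLL1 and HEY2 lie far above the line, with differences from 2.40 to 2.85, and NOTCH1 lies near the lower edge of the listed rows at 1.05.

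EZH2 rows with a higher level in shPHF19L#4 cells lay at 5 of the 10 genes (9.54% of all genes). Their median difference was 1.13, and that of all 2408 EZH2 rows was 1.16. SUZ12 rows lay at 2 of the 10 (2.44% of all genes), with a median difference of 0.73 against 0.96 over 508 rows. H3K27me3 rows lay at 3 of the 10 (3.53% of all genes), with a median of 1.05 against 1.13 over 1049 rows. MTF2 rows lay at 3 of the 10 (9.01% of all genes), with a median of 0.90 against 0.87 over 2546 rows. The member medians were lower than those of all rows for EZH2, SUZ12 and H3K27me3, most so for SUZ12, and slightly higher for MTF2. Single members lay apart from them, with NOTCH1 high in 3 tables, and DLL1 and HEY2 for SUZ12 and DLL4 for H3K27me3 low in theirs. Nearly all listed rows were higher in shPHF19L#4 cells, with 1 lower row of 2408 for EZH2, 0 of 508 for SUZ12, 1 of 1049 for H3K27me3 and 7 of 2546 for MTF2, so the common direction of the members is that of the tables. With a required difference of 1, the SUZ12 count was 0 (1.17% of all genes) and the MTF2 count 1 (3.08%), which was NOTCH1. The EZH2 count stayed at 5 (7.60%), and the H3K27me3 count was 2 (2.93%), without DLL4.

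H3K27me3 rows lay at DLL4, NOTCH1 and NOTCH3, which also had EZH2 rows and had smaller PHF19 differences or no PHF19 row. DLL1 and HEY2, with larger PHF19 differences, had EZH2, SUZ12 and MTF2 rows and no H3K27me3 row, and HEY1 had its PHF19 row alone. JAG1, with a smaller PHF19 difference of 1.57, also had its PHF19 row alone, and JAG2, HES1 and HEYL had no row. NOTCH1 was the member with rows for EZH2, H3K27me3 and MTF2 together. This division was seen after the values were known and was not tested.

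**Figure D4:**
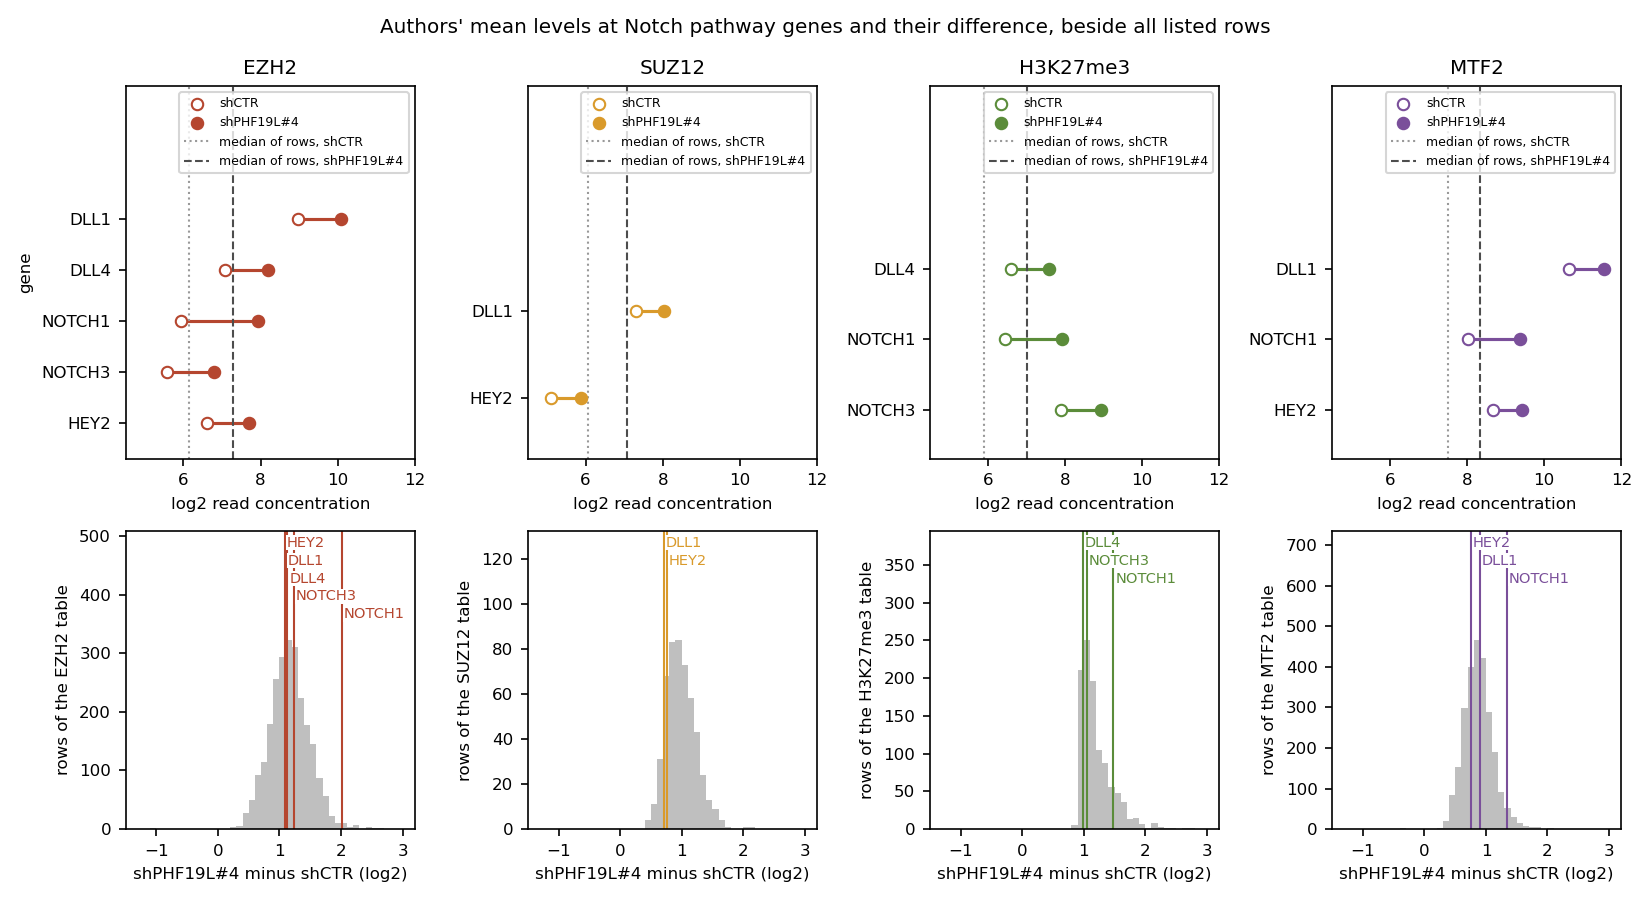
Top, mean log2 read concentration at each member with a row in shCTR (open) and shPHF19L#4 cells (filled), with the medians of all rows of the table as vertical lines. Bottom, the difference between the conditions for all rows (grey histogram) and for the members (coloured lines), where NOTCH1 has the largest member value for EZH2 (2.01), H3K27me3 (1.48) and MTF2 (1.34).

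The length under peaks gives a value for each replicate, which the tables do not. H3K27me3 coverage was longer in both shPHF19L#4 replicates than in both shCTR replicates at 4 of the 9 members with such a peak, against 27.5% of 6079 genes. These were DLL1, DLL4, NOTCH1 and NOTCH3, of which DLL4, NOTCH1 and NOTCH3 also had the H3K27me3 rows. With the MANE Select interval DLL1 was lost and the count was 3 of 9, against 27.4% of 5633 genes. Coverage was shorter in both depleted replicates at 0 of the 9, against 0.214% of genes. MTF2 coverage was longer in both depleted replicates at 2 of 9 members, DLL1 and HEY1, against 3.58% of 12251 genes, and shorter at 0, against 0.310%. With the MANE Select interval HEY1 was lost and the count was 1 of 9, against 3.69% of 11751 genes. Compared within each replicate number, as a paired count, MTF2 coverage was longer at 4 of 9 members, DLL1, NOTCH1, HEY1 and HEY2, against 13.0% of genes, and H3K27me3 coverage at the same 4 of 9 as above, against 29.8%. In replicate 1 alone MTF2 coverage was longer at 4 of 4 members with a peak and at 85.8% of genes, and in replicate 2 alone at 8 of 9 and at 59.8%. The lists differ in size, with 39254 and 15994 H3K27me3 peaks in the shCTR replicates and 35128 and 57026 in the shPHF19L#4 replicates. Within replicate 2 H3K27me3 coverage was longer after depletion at 8 of 9 members and at 98.5% of genes, and within replicate 1 at 4 of 6 members and at 42.4% of genes. The part of list size in these lengths was not tested. An exact permutation test of 2 against 2 samples cannot give a two-sided p below 0.333, so none was run.

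**Figure D5:**
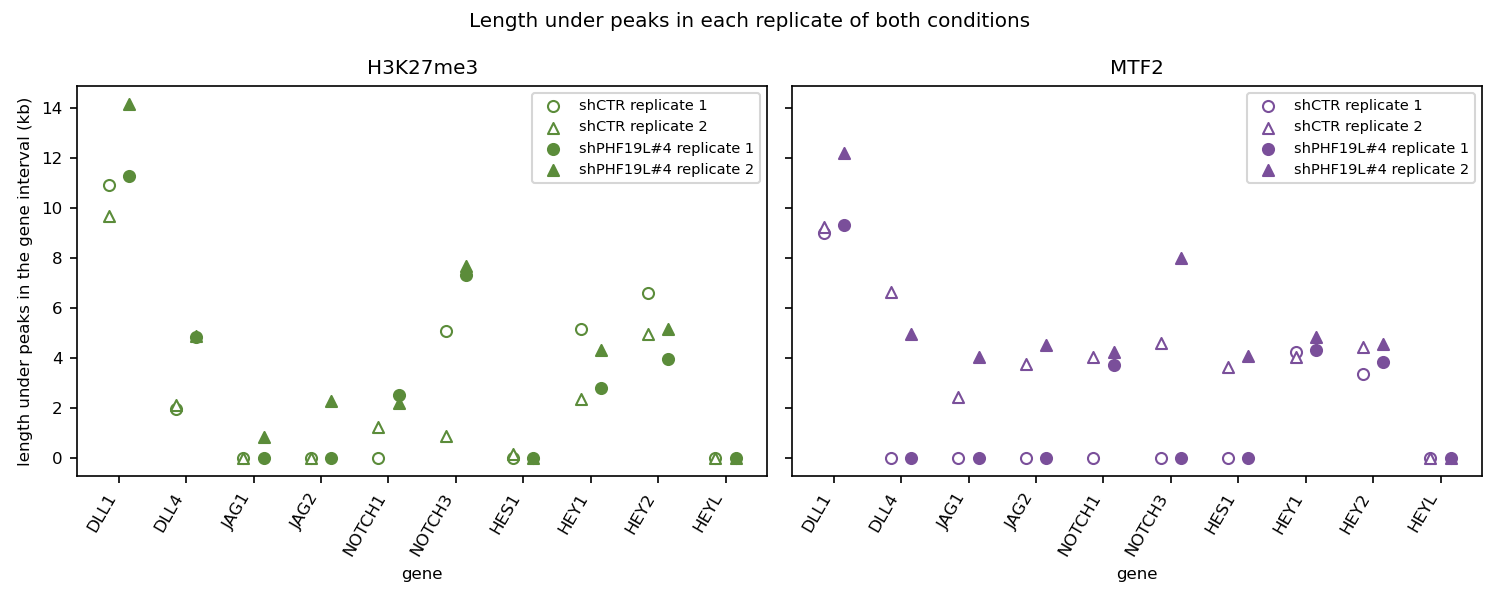
Length under H3K27me3 peaks (left) and MTF2 peaks (right) in the interval of each of the 10 genes, in kb, with a symbol for each replicate of shCTR (open) and shPHF19L#4 cells (filled). At DLL4 and NOTCH3 both filled H3K27me3 symbols lie above both open ones, whereas at HEY1 and HEY2 they mix.

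Of 46 further genes of the Notch pathway, which include its proteases, glycosyltransferases, nuclear cofactors, regulators and other HES genes, 11 had a row in any table and 35 had none. No share of all genes is given for a row in any table, and the counts for each table follow with theirs. EZH2 rows lay at 10 of the 46 (9.54% of all genes), MTF2 rows at 9 (9.01%), PHF19 rows at 5 (4.64%), H3K27me3 rows at 3 (3.53%) and SUZ12 rows at 2 (2.44%). H3K27me3 regions of both replicates lay at 10 in shCTR and at 14 in shPHF19L#4 cells, against 13.2% and 18.7% of all genes. MTF2 regions lay at 6 and 9, against 5.0% and 9.81%. The counts were thus higher in depleted cells, as they were over all genes. The genes with a PHF19 row, or with EZH2 and MTF2 rows, were MAML3, HES2, HES3, HES5, DTX1, DTX4, NEURL1, DNER and DLK2. MAML3, a nuclear coactivator of Notch, had the largest PHF19 difference of them, with 8.08 in the ChIP and 5.83 in input (2.25). Its EZH2 level went from 6.36 in shCTR to 7.00 in shPHF19L#4 cells, a difference of 0.64. HES5, an effector gene, had the largest EZH2 difference of the named genes, with 6.24 and 7.83, a difference of 1.59. It also had an H3K27me3 row with 6.82 and 7.96, a difference of 1.14. These HES5 rows are shared with PANK4. HES3 had 7.39 and 8.60 for EZH2, a difference of 1.21, and DNER, a Delta-like transmembrane protein, had 6.66 and 7.91, a difference of 1.25.

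Genes expected to be active in an epithelial line were counted in the same way. Of KRT8, KRT18, EPCAM and CDH1, 1 of 4 had a row, which was CDH1, the gene of E-cadherin, with 5.48 in shCTR and 6.93 in shPHF19L#4 cells for EZH2 and 7.35 and 7.91 for MTF2. Higher rows lay at 9.54% of all genes for EZH2 and at 9.01% for MTF2. No H3K27me3 region of both replicates lay at any of the 4 in either condition, against 13.2% of all genes in shCTR and 18.7% in shPHF19L#4 cells. Of 10 housekeeping genes, 0 had a region of both replicates or a row. Over all genes the shares ran from 0.253% for SUZ12 regions in shCTR cells to 18.7% for H3K27me3 regions in shPHF19L#4 cells. With shares this low, a count of 0 among 10 genes sets them little apart.

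The genes most like a member were found among 754 genes with rows for PHF19, EZH2 and MTF2, by Euclidean distance over 5 log2 levels (PHF19 ChIP, and EZH2 and MTF2 in each condition). Apart from FAM120B, which has the same rows, the nearest to DLL1 were CCND2 and ENSG00000285901, each at 0.45 with the same values, against a median distance of 4.39. The nearest to NOTCH1 were DOCK1 and INSYN2A at 0.41, also with shared values, and LMO1 at 0.47, against a median of 2.22. The nearest to HEY2 were SLFN11 at 0.23, IGF1R at 0.35 and MAN1A1 at 0.36, against a median of 2.11. For DOCK1 the EZH2 level was 6.19 in shCTR and 8.08 in shPHF19L#4 cells, near the 5.93 and 7.94 of NOTCH1.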

How the data were processed

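ChIP-seq peaks and DiffBind tables of DU145 cells were used as deposited. The authors mapped reads with Bowtie to hg19 (with the fly genome where spike-in was added), ran MACS on every replicate with its control, and compared groups with DiffBind. The score is the value that the authors deposited for each peak, from MACS, or tags in the PHF19 list of replicate 1, and is not scaled between libraries. The log2 levels are the authors' mean read concentrations of each group, and no scaling between libraries is stated for them. The Fold, p.value and FDR columns hold the authors' own comparison and were not used. The first header line of the EZH2, SUZ12, H3K27me3 and MTF2 tables repeats the names of the PHF19 table, and the second names the depleted cells.

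Overlaps of at least 1 bp with gene intervals were counted with pandas 2.3.3 and numpy 2.4.6 under Python 3.11.15, and figures drawn with matplotlib 3.10.9. Genes came from GENCODE release 44 on GRCh37, where the authors had used RefSeq. Where a gene had several rows in a table, the row with the highest mean level stood for it. The steps were tested on simulated data. Promoters came from RefSeq (GRCh38.p14), and other sequence from GRCh37.

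All 10 members are named in every list and table. Of the wider pathway, genes with a PHF19 row or with both EZH2 and MTF2 rows are named, and for each member with PHF19, EZH2 and MTF2 rows the 3 nearest genes. The members and lists were chosen with earlier results of these data known. No test was run. Alternatives were 50% of a region inside the interval, scores from 100 up, leaving out each replicate (for occupied members), a peak in either replicate, 2.5 kb around the start, a difference of at least 1, other choices among a gene's rows, and rows that overlap a PHF19 row. Added after seeing the data were the interval of the MANE Select transcript, 2.5 kb on each side of that transcript's start, and, for covered length, leaving out each replicate and comparing within replicate numbers. Depth is unknown, since the lists give no read totals, and so counting error is not given. Input and IgG libraries, RNA-seq, and the shPHF19L#4 libraries of PHF19, EZH2 and SUZ12 as peaks, were not analysed here.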

Additional observations from a re-analysis of the deposited data

How the results depend on the processing

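Of 103 counts and medians recomputed under the alternatives, 81 stayed equal or, for counts, within 1.5 times, and 22 moved. Some of the 81 could not have moved, so the tally is no measure of stability. The MTF2 lists of replicate 1 hold no score and the PHF19 list of replicate 1 holds tags, so the score limit was not applied to them. For PHF19 and MTF2 it acted on replicate 2 alone. DLL1 for SUZ12 was the only member with more than 1 row in a table, so the choice of row could change no other difference; it moved to 0.74 and 0.77.

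Leaving out either replicate gave from 3 to 8 members with PHF19 peaks, 3 to 4 with EZH2, 1 to 2 with SUZ12, 5 to 7 and 6 to 8 with H3K27me3 in shCTR and shPHF19L#4 cells, and 3 to 9 and 4 to 9 with MTF2. With a peak in either replicate the counts were 8 for PHF19, 2 for SUZ12 and 9 for MTF2 in each condition. No share of all genes is given for this rule. Replicate 2 alone already reached 23.4% of all genes for PHF19, and 49.5% and 51.0% for MTF2 in shCTR and shPHF19L#4 cells. Fewer required lists give larger counts by construction. A score of at least 100 left 3 members with H3K27me3 in shCTR cells, without DLL4 and NOTCH3, and 2 with EZH2, without HEY2. In shPHF19L#4 cells it kept all 6 members with H3K27me3. Within 2.5 kb of the gene start, DLL1 was lost from every count that held it, for all targets, since its record starts far upstream. No share of all genes is given for this interval. SUZ12 then had 0 members in both replicates and 1 with a row. Within 2.5 kb of the MANE Select transcript start, a choice made after seeing the data, it kept 1 and 2, and all counts of occupied members and of members with a row were as in the main setting. Rows that differ by at least 1 lay at 0 members for SUZ12 and 1 for MTF2.

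Among rows that overlap a PHF19 row, the median difference was 1.11 for EZH2, and for H3K27me3 a single row was left, NOTCH1 with 1.48. For SUZ12 it was 0.75 with the mean of a gene's rows and 0.77 with the row nearest the start of the gene record, which at DLL1 is the upstream row; the row over the transcript start is the one used in the report. Further alternatives chosen after seeing the data bear on covered length: with 1 replicate left out, 4 to 8 members had longer H3K27me3 coverage and 4 to 8 longer MTF2 coverage, and with the MANE Select interval 1 had longer MTF2 coverage and 3, without DLL1, longer H3K27me3 coverage. With the replicate number as a replicate block, 4 members had longer MTF2 coverage and 4 longer H3K27me3 coverage. The labels give the libraries a shared number and state no other link, and the tables hold no value per replicate to pair. The cause was not tested. Depth is unknown, so absence of a peak in a short list does not show absence of binding.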
